A study of Mus with 4 samples.

Results

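The genes described here are 205 intracellular genes of a murine podocyte cell line whose signal stood above background with the active form of OASIS and not with the Venus control, out of 26893 genes named on the array. They were chosen by the array values themselves. A probe, the short DNA on the array that reads a transcript, had to be well above background on both OASIS arrays and on neither Venus array, and its mean intensity had to be at least 4-fold higher with OASIS. Of all named genes, 237 met this, which is 0.881% of the genes on the array. Genes that Gene Ontology places in the extracellular region or space were then left out, together with Acp5, which leaves 205 genes read by 226 probes. The values that follow are those that chose the genes, so they are a description and carry no test. In the opposite direction, 14 genes met the mirrored rule, which is 0.0521% of those on the array.

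OASIS, also called CREB3L1, is a transcription factor held in the membrane of the endoplasmic reticulum. When it is cut within the membrane, its N-terminal part moves to the nucleus and binds DNA. It is known for genes of secretion and the extracellular matrix, for instance in bone. Podocytes are the epithelial cells that wrap the capillaries of the glomerulus.

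The 4 samples came from an immortalised podocyte line that had differentiated for 10 to 14 days at the non-permissive temperature. For 24 h, 2 received a lentivirus for Venus, a fluorescent protein, and 2 a lentivirus for the active, N-terminal form of OASIS, at a multiplicity of infection between 200 and 500 with 8 µg/mL polybrene. RNA was taken 48 h after the vector was added and hybridised to 1-colour arrays, 1 array for each sample. Nothing in the labels says that the samples of a group came from separate cultures, so the spread between them may be technical. Between 33938 and 34418 of 59305 spots were well above background on the 4 arrays. Creb3l1 was read by a single probe, at 1520 and 1630 with Venus and 1460 and 1360 with OASIS (log2 change -0.17 ± 0.10 SE, limma adjusted p = 0.293). Whether this probe reads the transcript of the vector was not determined, so that it does not check the labels. Of 14 podocyte markers, 10 were well above background in both groups, with Synpo and Actn4 among the bright ones. Nphs1, Tcf21 and Ptpro were among those not well above background in either group. Of the 10 tested, 1 was higher and 1 lower past the limma threshold given below, beside 6.18% and 1.86% of all genes tested, members included. Cd2ap was higher with OASIS (log2 change 1.09 ± 0.11 SE, limma adjusted p = 0.00836). Plce1 was lower (-1.26 ± 0.42 SE, limma adjusted p = 0.0921).

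The name of the group holds in part. No probe of 137 of the 205 genes was well above background on any Venus array, and 89 of these have a single probe on the array. For 63 genes, however, another probe was well above background on both Venus arrays, so the transcript, or part of it, was detected there as well. Dnaja1, a co-chaperone of heat shock protein 70, is such a gene: another of its probes gave 55430 and 57260 with Venus and 42360 and 47850 with OASIS. Rab2a, a GTPase of transport between the endoplasmic reticulum and the Golgi, gave 25980 and 27300 with Venus and 32790 and 27830 with OASIS on another probe. Both genes were named after their values were seen. The word intracellular stands only for the missing extracellular terms. Of the 192 members with any Gene Ontology term, 52 carry the term for the plasma membrane (27.1%, against 18.5% of all genes with a term) and 11 that for the cell surface (5.73%, against 3.01%). None carries the terms for extracellular matrix or exosome, and 13 members have no term at all.

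Since the probe that met the rule was not well above background with Venus, the size of its difference is given as a lower bound. This bound depends on the floor chosen, and it belongs to that probe and not to every probe of the gene. The mean of the OASIS arrays was set against the lowest signal that counted as well above background on each Venus array (13.5 and 14.0), or against the probe's own value where that was higher, with each array scaled to its 75th percentile. The bound lay between 1.18-fold and 311-fold, with a median of 3.56-fold. It exceeded 4-fold for 90 genes, 16-fold for 22 genes and 100-fold for 5 genes. A higher floor gives lower folds, so 'at least' holds here for the floor used and is no guaranteed minimum. With the floor at the 5th percentile of signals well above background, 59 genes exceeded 4-fold. Most members were thus dim with OASIS too: the median intensity over the 2 OASIS arrays and 205 genes was 48.8, and the highest was 5370. The order of the bounds is not an order of abundance, since probes differ in how brightly they read their transcript.

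**Figure D1:**
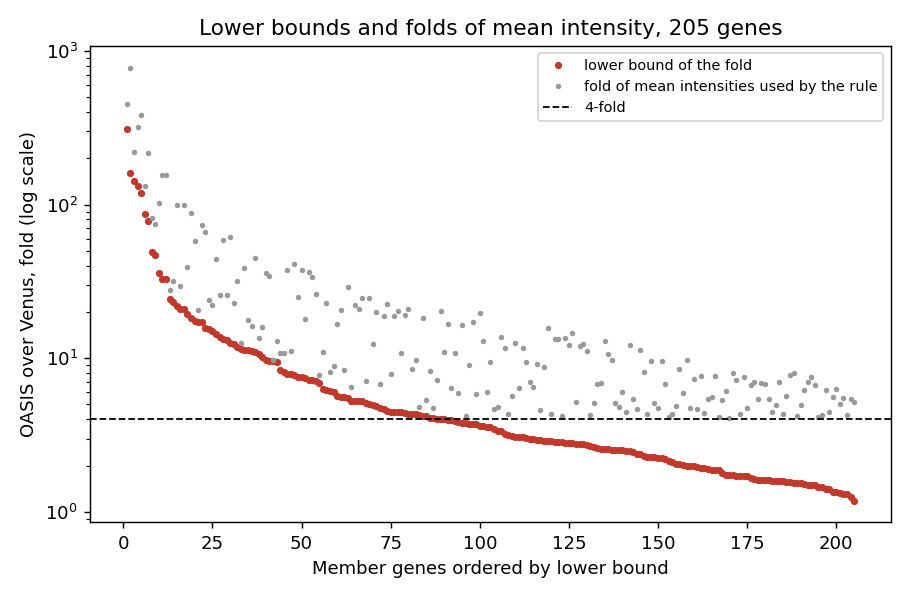
Lower bound of the OASIS over Venus fold (red) and the fold of mean intensities that the rule used (grey) for the 205 genes, ordered by the bound, on a log axis with the 4-fold line dashed. The bounds run from 1.18-fold to 311-fold, and 90 lie above the 4-fold line.

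Rgcc had the highest bound. It encodes a regulator of the cell cycle that binds the kinase CDK1. Its intensities were 9.41 and 10.1 with Venus and 5372 and 3444 with OASIS, at least 311-fold higher. Helt, a basic helix-loop-helix repressor known from the development of inhibitory neurons, gave 2.90 and 2.96 with Venus against 2796 and 1769 with OASIS, at least 161-fold. The groups lay far apart for both genes, and each is read by 1 probe.

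Several receptors and membrane proteins followed. Htr5b, a serotonin receptor, gave 3.35 and 5.46 with Venus against 1947 and 1399 with OASIS, at least 119-fold higher. Fcgr3, a low-affinity receptor for immunoglobulin G, gave 4.57 and 14.7 against 2703 and 1528, at least 143-fold, and both of its probes met the rule. Rhd, a Rhesus blood group protein, gave 2.99 and 8.50 against 2076 and 1608, at least 132-fold. Kcnk6, the two-pore potassium channel TWIK-2, is read by a pair of probes that both met the rule. The brighter gave 7.36 and 2.90 with Venus and 1334 and 875 with OASIS, at least 78.2-fold. In each of these genes both OASIS arrays lay above both Venus arrays, as the rule requires.

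**Figure D2:**
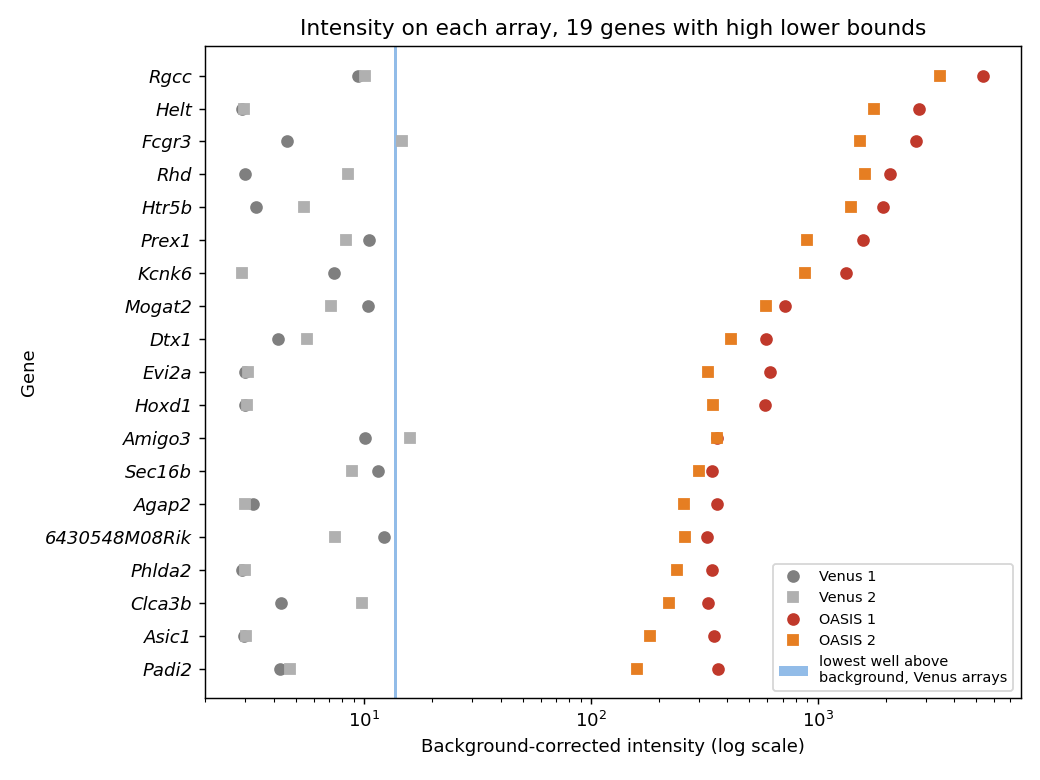
Background-corrected intensity (log axis) of 19 of the 20 genes with the highest bounds on each of the 4 arrays, Venus in grey and OASIS in red and orange. The blue band spans the lowest signals well above background on the Venus arrays, 13.5 to 14.0, and OASIS replicate 1 lies to the right of replicate 2 for most genes.

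Transcription factors made up 17 of the 192 members with a term (8.85%, against 5.91% of all genes with a term). After Helt, the highest bounds in this group were those of Hoxd1 and Tbx1. Hoxd1, a homeobox factor of the body axis, gave 2.99 and 3.04 with Venus and 587 and 347 with OASIS, at least 32.6-fold higher. Tbx1, a T-box factor of the pharyngeal arches, gave 9.71 and 9.14 against 242 and 179, at least 15.0-fold. The group also held Foxb2, Sox18, Ovol1, Hoxd13 and Foxa2, and the median bound over the 17 was 3.48-fold. Ovol1, which also carries the term for spermatogenesis, had a bound of 3.04-fold.

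The terms for ion transport or ion channels were carried by 16 members (8.33%, against 2.73% of all genes). The channel genes Kcnk6 and Cngb1, also members, lack these terms in the deposited table and are not counted. Asic1, a sodium channel opened by protons, gave 2.95 and 3.01 with Venus and 347 and 182 with OASIS, at least 18.2-fold. Chrna1, the alpha subunit of the muscle acetylcholine receptor, gave 3.23 and 7.25 with Venus and 191 and 141 with OASIS, at least 11.9-fold. Slc38a8, an amino acid transporter, gave 2.70 and 2.76 against 138 and 84.6, at least 7.82-fold. A second probe of Slc38a8 was lower with OASIS, at 77.0 and 68.8 against 144 and 123. The potassium channel genes Kcng1, Kcnd1, Kcnk13, Kcnn3, Kcnn4 and Kcne2 were in the group as well. Of the 16 genes, 9 had no probe well above background on any Venus array. The brightest other probe of Kcnd1, Kcnn3 and Kcnn4 was detected on all 4 arrays and read 0.796-fold, 2.30-fold and 3.58-fold. That of Hcn3, also in the group, read 0.508-fold. The median bound of the group was 2.87-fold.

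G protein-coupled receptors and their signalling proteins numbered 9 (4.69%, against 8.06% of all genes, of which olfactory receptors are a large part and gave no member). Besides Htr5b, Prex1, an exchange factor that activates the GTPase Rac, stood out. It gave 10.5 and 8.37 with Venus and 1586 and 898 with OASIS, at least 86.4-fold higher. Gper1, a membrane receptor for oestrogen that also carries the cell cycle and apoptosis terms, had a bound of 5.24-fold. Adrb1 and Adrb3, both beta-adrenergic receptors, were members with bounds of 2.38-fold and 9.58-fold. Another probe of Adrb3 was detected on all 4 arrays. It gave 114 and 124 with Venus and 2431 and 1816 with OASIS, 17.9-fold higher. Grm4, Galr2 and Htr1b were also in the group.

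Enzymes were led by Mogat2, which makes diacylglycerol, and Dtx1, a ubiquitin ligase of the Notch pathway. Mogat2 gave 10.4 and 7.18 with Venus and 719 and 594 with OASIS, at least 47.3-fold higher. Its other probe was well above background on no array. Dtx1 gave 4.19 and 5.59 against 593 and 415, at least 35.9-fold. Of the 16 transferases (8.33%, against 7.85%), Pdgfra, the alpha receptor for platelet-derived growth factor, had a bound of 7.95-fold. Pdgfra was also first among the 4 kinases (2.08%, against 3.18%). Next came Zap70, a kinase of T cell receptor signalling (4.76-fold), whose other probe, detected on all 4 arrays, read 7.83-fold. Prkcz, an atypical protein kinase C, followed at 4.04-fold, and its other probes, detected on all 4 arrays, read 1.89-fold and 1.92-fold. The 15 hydrolases (7.81%, against 7.08%) were led by Padi2, which converts arginine to citrulline in proteins, with 4.28 and 4.72 against 362 and 159. Its bound was 17.4-fold, and its other probe was well above background on no array. Ecel1, a membrane metallopeptidase, and Dupd1, a phosphatase, had bounds of 17.3-fold and 14.3-fold.

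Other members had high bounds as well. Sec16b, a protein of the sites where cargo leaves the endoplasmic reticulum, gave 11.5 and 8.87 with Venus and 343 and 300 with OASIS, at least 23.2-fold higher. Amigo3, an adhesion protein, gave 10.1 and 15.95 against 359 and 360, at least 24.3-fold. Evi2a (32.6-fold), Agap2 (22.0-fold), 6430548M08Rik (21.0-fold), Phlda2 (20.8-fold) and Clca3b (19.5-fold) were also among the 20 members with the highest bounds. Phlda2 is known as an imprinted gene of the placenta, and Agap2 encodes a GTPase-activating protein for Arf. The other probes of Agap2 were well above background on no array.

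Among smaller groups, endoplasmic reticulum terms were carried by 17 members (8.85%, against 6.93%) and Golgi terms by 20 (10.4%, against 5.79%). Clgn, a chaperone of the testis, had a bound of 5.71-fold and Sybu, a linker of vesicles to kinesin, one of 11.0-fold. Mitochondrial terms were carried by 7 members (3.65%, against 7.91%), among them Arg2, the mitochondrial arginase, at 3.79-fold. The nucleus was listed for 47 members (24.5%, against 26.9%) and the cytosol for 29 (15.1%, against 13.9%), of which Pik3ap1, an adaptor for phosphoinositide 3-kinase, had a bound of 15.5-fold. Tcp11, a testis protein, led the 8 members with the term for spermatogenesis (4.17%, against 1.93%) at 9.49-fold. Alox8, a lipoxygenase (5.49-fold), and Hsd17b2, a steroid dehydrogenase (2.53-fold), followed Mogat2 in lipid metabolism. Scarf1, a scavenger receptor, and Itgax, the integrin CD11c, joined Amigo3 in cell adhesion at 5.29-fold and 2.12-fold. The other probes of Itgax were well above background on no array. Kcnip3, a calcium-binding protein that acts on channels and on transcription, had a bound of 2.39-fold by a dim probe. Its probes that were detected on all 4 arrays read 1.61-fold and 1.79-fold. These shares describe the list, and no test was made of them.

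**Figure D3:**
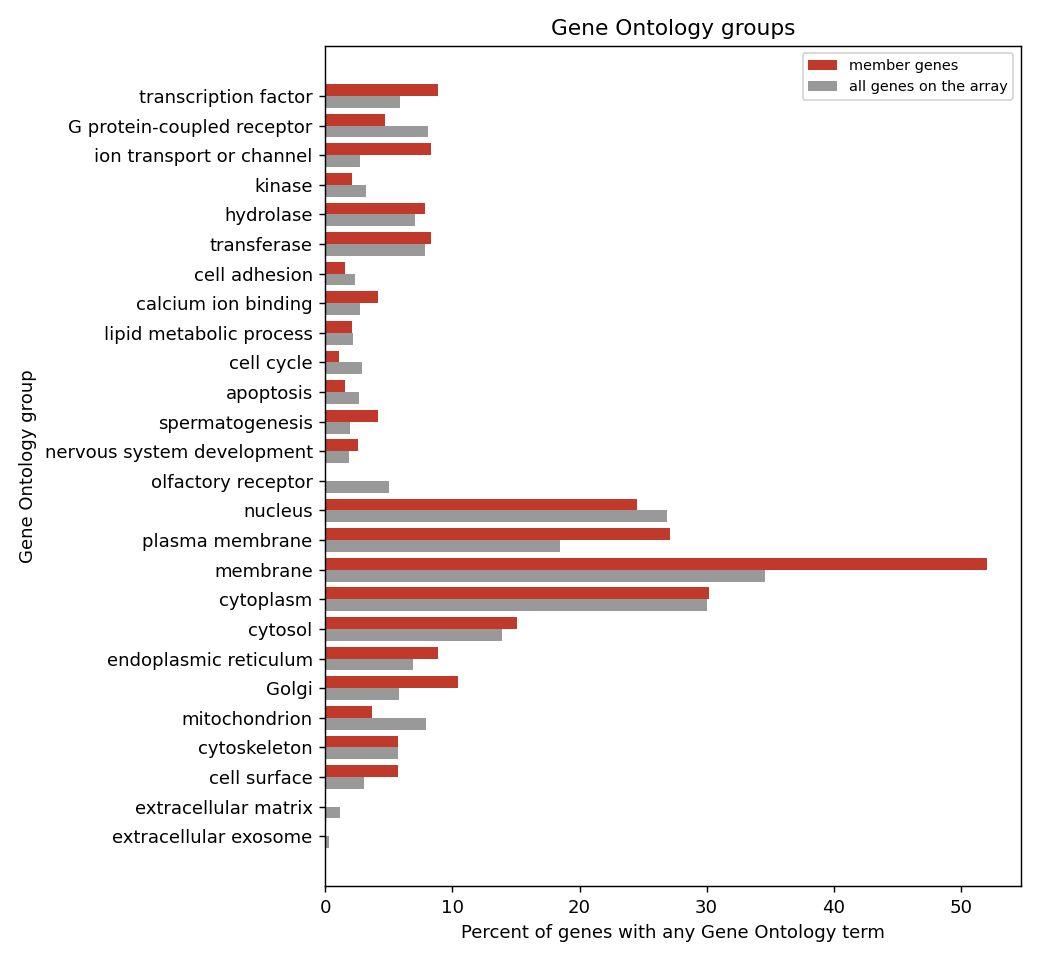
Share of member genes (red, of 192 with any term) and of all genes on the array (grey, of 21605 with any term) in each Gene Ontology group, in percent. Ion transport or channel genes make up 8.33% of members against 2.73% of all genes, and mitochondrial genes 3.65% against 7.91%.

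By biotype in the RefSeq table of GRCm38.p6, 181 members are protein-coding and 16 are long noncoding RNAs. The members were spread over the genome. Among protein-coding genes in their order on the chromosomes, 2 pairs of members were direct neighbours, Rasal1 with Dtx1 and Galnt17 with Auts2, all on chromosome 5. Of 347 neighbouring genes that are no members, 258 were tested in limma and 20 of them rose past the threshold of the fit, a fold over 2 with an adjusted p under 0.1. That is 7.75%, against 6.18% of all 16318 genes tested, and 1.55% fell, against 1.86% of all genes. The 16318 genes include the 205 members, chosen on this same contrast, of which 166 passed as higher. The 2 shares are therefore not of like sets. The median log2 change of the neighbours was -0.02, against -0.06 for all genes tested.

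Other probes of the same genes give a second reading in the same comparison, which shares the arrays that chose the genes and is likewise given without a test. Of 196 such probes, 82 were well above background on no array and 91 on all 4. Among the 91, the median fold of OASIS over Venus was 1.89, against 0.954 for all 25458 named probes detected on the 4 arrays. It was over 2-fold for 40 (44.0%, against 5.08% of all such probes) and over 4-fold for 16. The remaining 51 lay between 0.5 and 2.

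The members with the highest bounds that had such a probe differed in what it read. For Rhd, the other probe gave 29.1 and 29.2 with Venus and 612 and 478 with OASIS, 18.7-fold higher. For 6430548M08Rik it gave 179 and 149 against 8941 and 6681, 47.6-fold higher. Both other probes were thus higher with OASIS, like the probe that met the rule. For Ecel1, by contrast, it gave 73.5 and 75.7 with Venus and 75.2 and 74.1 with OASIS. For Cyth4, an exchange factor for Arf, it gave 26.4 and 30.2 against 35.2 and 36.5. For Hoxd3os1, a noncoding RNA of the Hoxd cluster, it gave 371 and 455 against 344 and 398. In these 3 genes the probes did not read the same size of change.

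**Figure D4:**
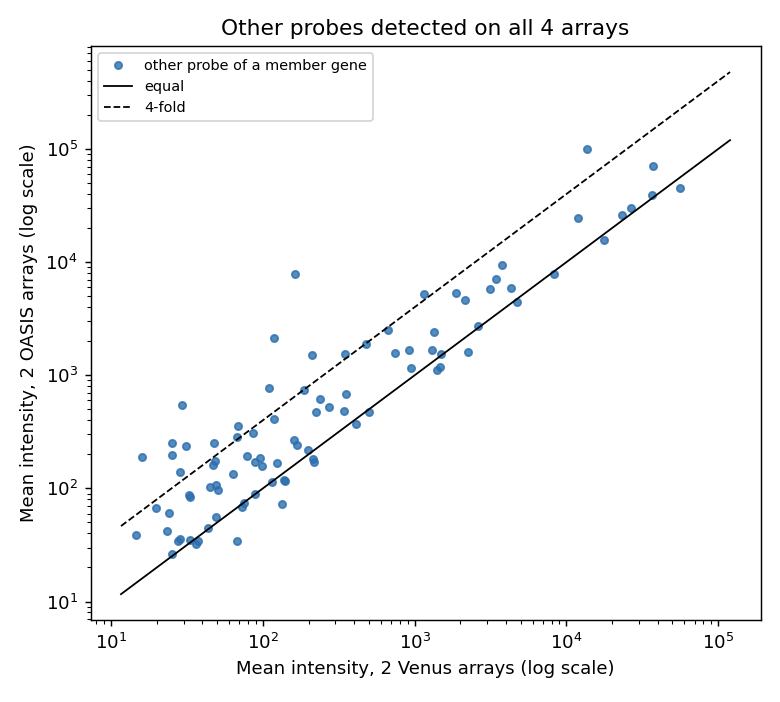
Mean intensity with OASIS against Venus (both axes log) for the 91 probes that read member genes, did not meet the rule and were well above background on all 4 arrays. The solid line marks equal intensity and the dashed line a 4-fold difference, which 16 of them exceeded.

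Among components of the coat that buds vesicles from the endoplasmic reticulum, named here after their values were seen, Sec31a and Sec24a met the rule by dim probes only. Their bounds were 2.25-fold and 1.44-fold. Another probe of Sec31a gave 11460 and 12500 with Venus and 26960 and 21890 with OASIS, and one of Sec24a gave 317 and 377 against 1569 and 1495. Sec24a had 4 other probes detected on all arrays, with folds from 0.946 to 4.42.

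At the limit of the rule the values were close. Just inside lay Shisa7 at 4.06-fold, Uba6 at 4.13-fold and Kif26a at 4.14-fold. Just outside lay Entpd8 at 3.96-fold, Spo11 at 3.92-fold and Abcc3, a transporter of the ABC family, at 3.85-fold. Shisa7 gave 4.45 and 7.78 with Venus and 30.6 and 19.1 with OASIS, and Entpd8 gave 2.78 and 6.57 against 22.2 and 14.9. The folds on either side differ by less than the spread between the arrays of a group.

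The OASIS arrays were not alike for these genes. OASIS replicate 1 was higher than replicate 2 for 166 of the 205 (81.0%), with a median ratio of 1.39. Over all 25458 named probes detected on the 4 arrays, the median ratio was 1.01 and 52.1% were higher on replicate 1. Among the 4689 of these with a mean OASIS intensity between the quartiles of the members, 30.0 and 105, the median ratio was 1.02. The 728 other genes that rose past the threshold and were detected on all arrays had a median ratio of 1.14, with 74.9% higher on replicate 1. What makes the replicates differ was not tested.

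**Figure D5:**
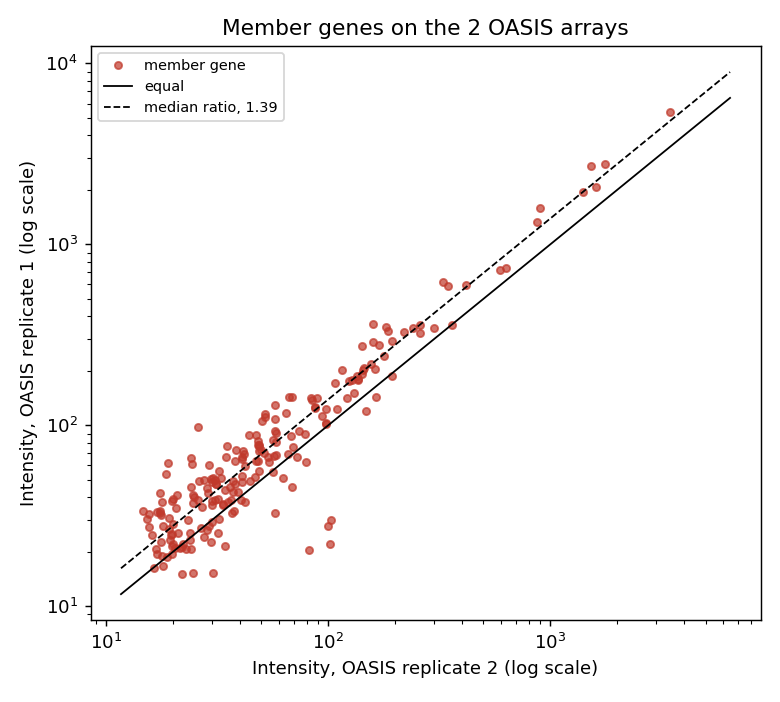
Intensity of each of the 205 member genes on OASIS replicate 1 against OASIS replicate 2 (both axes log), with equality as a solid line and the median ratio of 1.39 dashed. Most points, 166 of 205, lie above the line of equality.

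Relatives of Helt, Kcnk6, Htr5b and Rgcc were compared with limma over all genes. The list held the repressors related to Helt, the two-pore potassium channels, the serotonin receptors and CDK1 with its regulators. Of 45 such genes that are no members, 29 were tested, and 5 passed the threshold as higher and 0 as lower. Of all genes tested, with the members included, 6.18% were higher and 1.86% lower. One of the 5, Kcnk2, entered the fit only through its OASIS signal. With detection required on all 4 arrays, 28 family genes were tested and 4 passed as higher, beside 753 of all 15446 genes then tested. The median log2 change of the 29 family genes was 0.11, against -0.06 for all genes tested. None of the 8 tested repressors passed. Hes1, a repressor downstream of Notch, gave 651 and 661 with Venus and 861 and 857 with OASIS (log2 change 0.38 ± 0.10 SE, adjusted p = 0.0571).

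Of 9 tested two-pore channels, Kcnk1 passed on signal detected in both groups. Kcnk1 (TWIK-1) gave 167 and 236 with Venus and 987 and 889 with OASIS (log2 change 2.23 ± 0.17 SE, adjusted p = 0.00558). Kcnk2 (TREK-1) was not well above background with Venus, at 12.2 and 9.81, and gave 28.7 and 36.3 with OASIS, at least 2.34-fold higher. No p is given for it, since it was tested only because of its OASIS signal, and after normexp background correction its log2 change was 0.38. Kcnk5 gave 1540 and 1400 against 902 and 849, a log2 change of -0.76 ± 0.13 SE that did not reach the 2-fold limit. Kcnk13, itself a member, gave 9.45 and 5.59 against 47.3 and 31.3.

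Most serotonin receptors were not well above background in either group, and 2 were tested besides the members Htr5b and Htr1b. Htr2a gave 41.3 and 19.6 with Venus and 182 and 86.4 with OASIS (log2 change 2.13 ± 0.54 SE, adjusted p = 0.0513). It was past the threshold of 0.1, and the spread within each group was about as wide as a doubling. Replicate 1 was the higher in both groups, and with the replicate number as a block in limma the adjusted p was 0.0053. After normexp background correction the log2 change of Htr2a was 0.96, under the 2-fold limit. Htr4 did not pass, at 54.6 and 46.8 against 54.0 and 54.4.

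All 10 genes of the CDK1 list were tested. Cdc25a, a phosphatase that activates cyclin-dependent kinases, gave 3630 and 4190 with Venus and 8260 and 8320 with OASIS (log2 change 1.08 ± 0.10 SE, adjusted p = 0.0074). Its relative Cdc25c gave 104 and 134 against 331 and 527 (1.82 ± 0.25 SE, adjusted p = 0.0143). Cdk1 itself gave 369 and 663 against 607 and 1090 and did not pass (adjusted p = 0.234). Neither did Ccnb1, Plk1 or Wee1. With the replicate number as a block in limma, the adjusted p was 0.0188 for Cdk1, 0.0264 for Plk1, 0.492 for Ccnb1 and 0.420 for Wee1. The log2 changes of Cdk1 and Plk1, 0.71 and 0.70, stayed under the 2-fold limit. Ccnb2 gave 1930 and 2280 with Venus and 1110 and 1510 with OASIS. Its log2 change of -0.71 ± 0.18 SE did not reach the 2-fold limit. Cdk1 read 0.71 by its brightest probe and 0.35 by the mean of its probes. Wee1 read -0.11 by its brightest probe and -0.62 by the mean of its probes.

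Fcgr3, Zap70, Itgax and Cyth4 are known from blood cells. The macrophage markers Cd68, Csf1r, Ptprc, Itgam and Cd14 were well above background in both groups, and Adgre1 in neither. Their summed intensity, with Adgre1, was 19550 and 19850 with Venus and 15770 and 15990 with OASIS, and 0 of the 5 tested passed the threshold. The sum is mostly that of Itgam, at 13800 and 13600 with Venus and 10200 and 9250 with OASIS. Csf1r went the other way, at 904 and 1330 against 1620 and 2100 (log2 change 0.74 ± 0.22 SE, limma adjusted p = 0.0723). The log2 changes of Cd68, Ptprc and Cd14 were -0.226, 0.062 and -0.365. Of the other lists, 1 of 5 endothelial, 1 of 5 hepatocyte, 3 of 4 neuronal and 3 of 4 proximal tubule markers were detected in both groups, and Lrp2, a receptor of the proximal tubule, rose (log2 change 1.62 ± 0.23 SE, adjusted p = 0.0148). A further neuronal marker, Syt1, is itself a member, at 5.47 and 3.06 with Venus and 19.4 and 17.0 with OASIS. Its bound was 1.31-fold, and its other probes were well above background on no array. The part of other cell types in these genes was not tested, and in such bulk samples more cells of a type and more RNA per cell cannot be told apart.

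The 31 genes that met the rule on signal and carried an extracellular term had a median bound of 4.42-fold, between 1.48-fold and 250-fold. With the roles of the groups exchanged, 9 genes without an extracellular term met the rule, and the highest bounds among them, on the scaled values, were those of Nefl (at least 4.18-fold higher with Venus), Gm29856 (at least 4.10-fold), Hmx3 (at least 3.65-fold), Lonrf3 (at least 3.12-fold) and Ifi44 (at least 2.41-fold). Nefl, the light neurofilament, gave 56.8 and 56.4 with Venus and 11.3 and 10.4 with OASIS.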

How the data were processed

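RNA of 4 samples, 2 for each group, was read on 1-colour Agilent arrays on 1 slide in 1 scan. The authors deposited the background-corrected intensity of each spot from Agilent Feature Extraction 12.1.0.3, and a table with scaled intensities, a detection score, gene symbols and Gene Ontology terms. The scaled intensity was the corrected intensity times 1 factor for each array. The deposited detection score served only in an alternative.

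The members, lists and rules for named genes were chosen with earlier results of these data known. Members follow from the rule on corrected intensity. Named genes were Helt, Htr5b, Kcnk6 and Rgcc, the 20 highest bounds, the 3 highest of each Gene Ontology group, the 3 genes on either side of the 4-fold limit, 5 members with another probe detected with Venus, 5 genes of the mirrored rule and the family genes past the threshold. Other genes listed as part of a group, family or marker list were chosen after their values were seen. The term for transport is not used in the deposited table, so that group is empty. Values of some genes that the rule names are not reported here.

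For the fit, control and outlier spots were left out, each array was scaled to its 75th percentile on the log2 scale, and a probe was tested when well above background on both arrays of a group. A gene was read by its brightest probe, 16318 genes in all. limma 3.58.1 in R 4.3.3 compared the groups with Benjamini-Hochberg adjustment, and the threshold was a fold over 2 with an adjusted p under 0.1. Python 3.11.15 with pandas 2.3.3 served for the rest. The number of arrays limits the precision.

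The fit was tested on simulated data for OASIS against Venus, with 200 of 31590 probes changed. It recovered 70 of 90 probes changed 4-fold and 100 of 110 changed 8-fold, with 8 false calls and the sign right for all 200. A first, stricter criterion on the total recovered was not met, at 170 of 200. The 30 missed had the right size and missed the adjusted p alone, and 104 of 104 probes with a spread below the median were recovered. After these misses had been inspected, the criterion was replaced by checks of sign, bias, false calls and recovery of these probes.

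Alternatives are given in the closing section. Sequences were not used here, and gene positions served to order genes on the chromosomes.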

Additional observations from a re-analysis of the deposited data

Results flagged for a closer look

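Besides the named genes, 13 probes without a gene symbol were well above background on both OASIS arrays, on neither Venus array, and at least 4-fold higher with OASIS. They take no part in the comparisons of the report and are given because their signal exceeds that of the control arrays. Their lower bounds ran from 1.34-fold to 34.0-fold, with a median of 4.34-fold. Groups of 2 arrays are too small for a test of outlying arrays.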

How the results depend on the processing

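The number of member genes, 205, was 311 with a minimum fold of 2, 116 with 8, and 22 after normexp background correction with an offset of 50, which raises dim signals before the fold is taken. It stayed between 178 and 205 under the other alternatives of scaling, detection and terms. Leaving out 1 array gave 219 to 322, with 322 without OASIS replicate 1 and 319 without OASIS replicate 2, since 1 OASIS array then decides detection. Members with a lower bound over 4-fold numbered 90, 59 with the floor at the 5th percentile of signals well above background, 20 after normexp, and 77 to 104 without 1 array. Genes past the threshold of the fit numbered 1313, 789 after normexp, 405 with the methods' t-test after Benjamini-Hochberg adjustment, and 1276 to 1720 without 1 array, where the spread of a lone array is taken from the other group. Related family genes past the threshold numbered 5, 3 after normexp, 1 with the methods' t-test, 4 at an adjusted p under 0.05 and 4 to 6 without 1 array. All 5 rose in the fit as reported. With no filter on dim probes 4 of them passed, and Htr2a did not (log2 change 2.13, limma adjusted p = 0.177). A different gene, Htr2b, then passed as lower, with a log2 change of -1.71. Its probe was not well above background in either group, at 8.91 and 10.1 with Venus and 3.14 and 2.74 with OASIS. With the replicate number as a block, the replicate block gave 1342 genes and 5 family genes. The labels do not say that a number marks a shared batch, and the differences between replicates of the 2 groups correlated at r = 0.259 across 31590 probes, which are not independent replicates. Why these counts moved was otherwise not tested. Signal near background limits most members.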
